A study of Arabidopsis thaliana with 33 samples.

Results

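The light response of the Arabidopsis accession Col-0 was set against that of the accession Ga-0, locus by locus. The response was the change in RNA level 1 hr after the irradiance was raised to 550 μmol per square metre per second (high light, HL), relative to plants kept at 100 μmol (low light, LL). The difference of responses was (Col-0 HL minus Col-0 LL) minus (Ga-0 HL minus Ga-0 LL), on the log2 scale, so a positive value means a higher response in Col-0. It was computed for all 27826 loci of the table from 12 of its 33 arrays, with 3 arrays in each of the 4 groups. Col-0 and Ga-0 are natural accessions, neither carrying a transgene. All groups grew for 24 days in LL in 1 climate-controlled phenotyping system, and complete rosettes were harvested on day 25 at 1 hr after the lights came on, with HL starting at that day's lights-on. Each replicate was a pool of 3 rosettes, so plant-to-plant spread within a pool was not measured. Another accession, Ts-1, was sampled in the same way with 3 HL and 3 LL arrays, and Col-0 was also sampled at 3.5 and 25 hr, where Ga-0 was not. The comparison asks which genes answered the irradiance increase to a different extent in the 2 accessions.

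A rise in irradiance that saturates photosynthesis is known to warm the leaf and to load the electron transport chain, and within an hour it induces heat-shock proteins, photoprotective proteins and stress transcription factors. Plastid membranes consist largely of galactolipids and the sulfolipid sulfoquinovosyldiacylglycerol. When phosphate is scarce, plants degrade phospholipids and replace them with these phosphate-free lipids, and the enzymes of that exchange are a classical set of phosphate-starvation genes.

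The deposited values are the digits of linear expression values whose decimal separator was lost, so a level is known only up to a power of 10. The difference of responses was placed closest to 0, which holds for true differences of up to 3.16-fold. For the 520 loci that the study's supplementary tables list for Col-0 at 1 hr, the Col-0 response took the power of 10 of the listed change, and the Ga-0 response followed from the difference. For the 27306 unlisted loci both responses were kept as small as that difference allows. Levels of different genes cannot be compared, and those of organ markers cannot be read. For each gene the LL levels were placed closest to that of Col-0 LL. The direction of a level difference between accessions therefore holds only if that difference is below 3.16-fold. Of 11 flower, root and seed marker genes, none was light-responsive in either accession, none differed in LL between them (17.7% of all loci did, at an adjusted p below 0.05 in limma), and none had an unadjusted p below 0.05 in the difference of responses.

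Most of the light response was not distinguishable between Col-0 and Ga-0. In Col-0, 795 loci (2.86% of all loci) were responsive, of which 538 were up-regulated (1.93%) and 257 were down-regulated (0.924%) at a Benjamini-Hochberg adjusted p below 0.05 in limma and a change over 1.4-fold. In Ga-0, 628 loci (2.26%) were responsive, of which 381 were up-regulated (1.37%) and 247 down-regulated (0.888%). Of these, 283 were up-regulated in both accessions, 121 were down-regulated in both, and 0 moved in opposite directions. The loci that passed in 1 accession alone were 255 up-regulated and 136 down-regulated in Col-0, and 98 up-regulated and 126 down-regulated in Ga-0. Passing in 1 accession alone is no test of a difference, and only 22 of the 255 loci up-regulated in Col-0 alone passed the test of the difference itself.

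By that test, 37 of 27826 loci were called at an adjusted p below 0.05 in limma (0.133%), with 32 higher in Col-0 (0.115%) and 5 lower in Col-0 (0.018%). The absolute differences lay between 0.47 and 1.59, with a median of 0.77, and 10 exceeded 2-fold. Of the 5, SPX1 has no direction that the digits alone settle. Its difference was -1.59 when placed closest to 0 and 1.73 with the powers of 10 of the listed changes, which makes the split 33 higher and 4 lower. The changes that the study lists for both accessions thus put the SPX1 response higher in Col-0. At an unadjusted p below 0.05 the 2345 loci (8.43%) split evenly, with 1152 higher (4.14%) and 1193 lower (4.29%) in Col-0. The median SE of a difference was 0.127. The count of calls depended on single arrays: it was 138, with 89 higher in Col-0, without the second Ga-0 LL array, and 23 without the second Ga-0 HL array. All 37 loci were still called in the first case, and 19 of the 37 stayed called whichever of the 12 arrays was left out. With only the 12 arrays in the fit, 11 loci were called, all higher in Col-0, and 10 of them were among the 37.

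**Figure D1:**
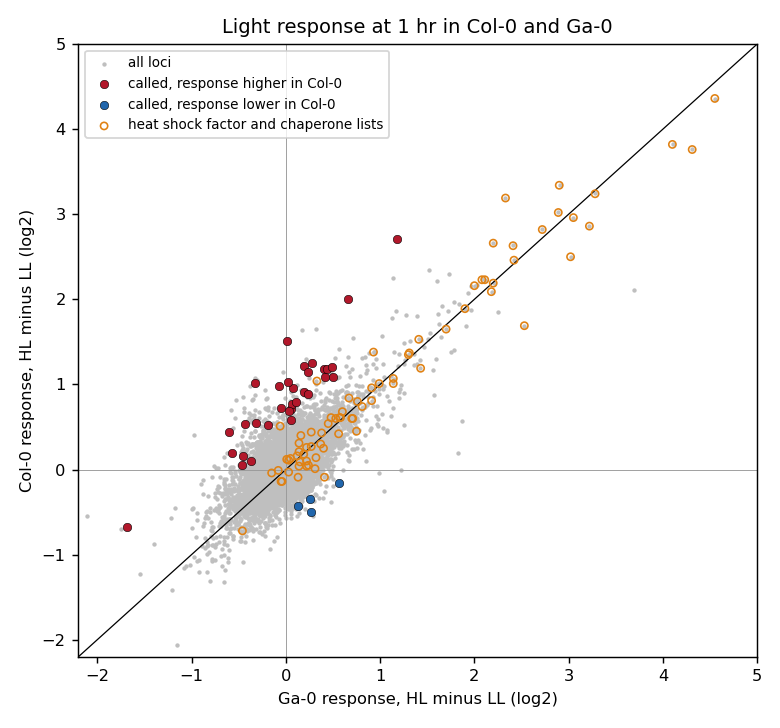
Response in Col-0 (y axis) against response in Ga-0 (x axis) at 1 hr, both as HL minus LL in log2 units, for all loci within the range drawn. Filled points are the 36 called loci other than SPX1, open circles are the heat-shock factor and chaperone lists, and the diagonal marks equal responses. Called loci higher in Col-0 lie above the diagonal, and the open circles lie on both sides of it, with HOP3 farthest above and HSP17.4B farthest below.

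Of the 37 called loci, 22 were up-regulated in Col-0 only, 5 in both accessions and 1 in Ga-0 only. The remainder were down-regulated in Col-0 alone (1), Ga-0 alone (2) or both (1), or were responsive in neither accession (5). Among the 32 loci higher in Col-0, the LL level was lower in Col-0 for 21 and the HL level was higher in Col-0 for 29, with both true of 18. These level differences share their arrays with the contrast that chose the loci, so they are a description only. Leaving out SPX1, the response of Ts-1 lay between those of Col-0 and Ga-0 for 30 of 36 loci and was the closer to Ga-0 for 26. That too is a description, since the loci were chosen for the distance between Col-0 and Ga-0.

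**Figure D2:**
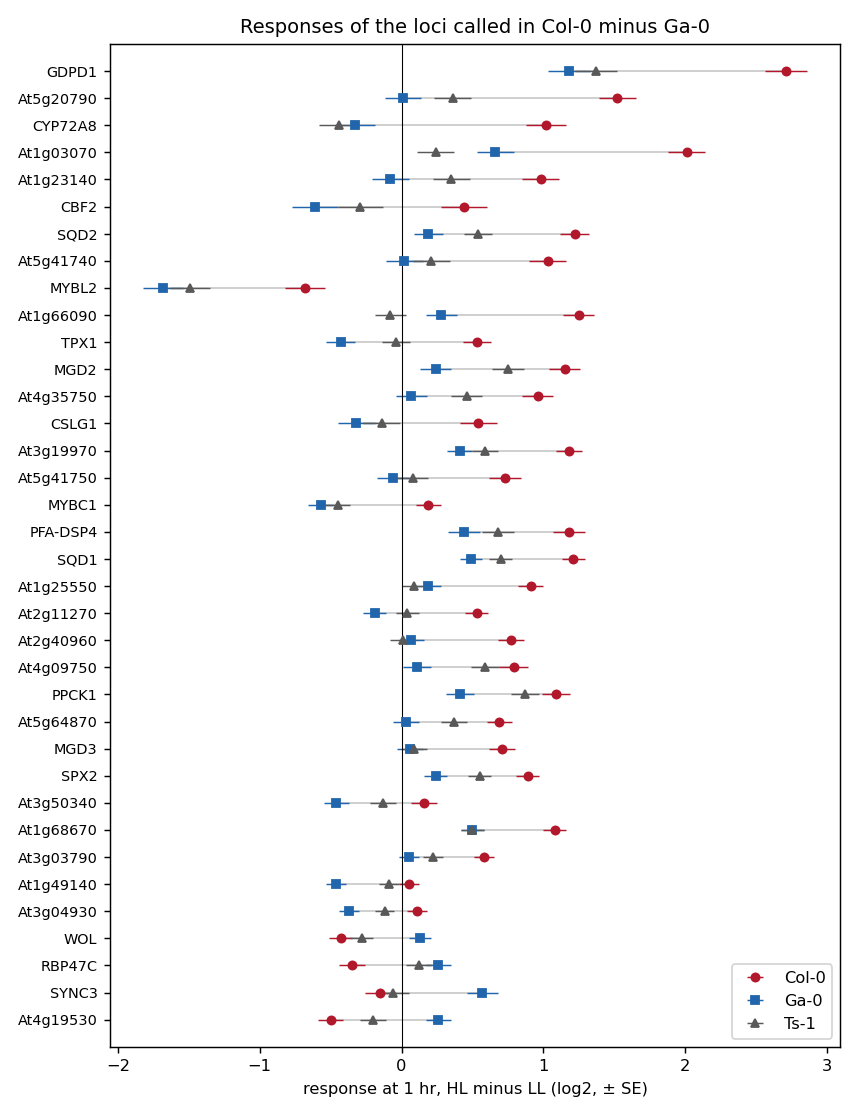
Responses at 1 hr (x axis, HL minus LL in log2 units, bars are the SE of the limma fit) of the 36 called loci other than SPX1, ordered by the difference of responses in Col-0 minus Ga-0 with the highest at the top. In the upper 32 rows the Col-0 point lies to the right of the Ga-0 point, and Ts-1 lies between them in most rows.

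Enzymes of membrane lipid remodeling were the largest functional group among the called loci that the gene lists cover. The list of 33 phosphate-starvation and lipid-remodeling genes overlaps a gene class that the study chose on these samples, so its direction is not independent evidence. Of the 33, 6 were higher in Col-0 and 1, SPX1, had no direction settled by the digits, against 0.133% called among all loci. The median difference over the list was 0.19, against -0.01 over all loci. At an unadjusted p below 0.05, 13 were higher in Col-0, as were 4.14% of all loci, and the only one placed lower was SPX1. By their own responses, 12 of the 33 were up-regulated in Col-0 (1.93% of all loci were) and 5 in Ga-0 (1.37%). These come from the same arrays as the difference, so they describe it and are not further evidence.

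Among the called genes, phospholipid breakdown was represented by GDPD1 (At3g02040), a glycerophosphodiester phosphodiesterase that releases glycerol-3-phosphate from the headgroups of degraded phospholipids. Relative to the mean LL array of the same accession, its Col-0 HL arrays were at 2.43, 2.95 and 2.75 log2 units and its Ga-0 HL arrays at 1.16, 0.88 and 1.49. The gene was thus strongly up-regulated in both accessions with no overlap between their HL arrays. LL arrays spanned -0.28 to 0.21 in Col-0 and -0.50 to 0.41 in Ga-0, so the Ga-0 control was the wider one. The response was 2.71 in Col-0 and 1.18 in Ga-0, and the difference was 1.53 ± 0.22 (SE, adjusted p = 0.00051 in limma). The Col-0 response exceeds what the digits alone can place, and its power of 10 is that of the listed change; with each response at its own smallest change the difference turns to -1.79.

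The synthesis of galactolipids was represented by a pair of enzymes. MGD2 (At5g20410) and MGD3 (At2g11810) are the monogalactosyldiacylglycerol synthases that phosphate starvation induces. For MGD2, Col-0 HL arrays were at 1.00, 1.33 and 1.11 and Ga-0 HL arrays at 0.32, 0.11 and 0.30 over their LL means. MGD3 was at 0.65, 0.91 and 0.57 in Col-0 HL and at 0.16, -0.04 and 0.06 in Ga-0 HL. Both genes were up-regulated in Col-0, while their Ga-0 responses of 0.24 and 0.06 did not pass the test. The differences were 0.91 ± 0.16 for MGD2 (adjusted p = 0.0044 in limma) and 0.65 ± 0.12 for MGD3 (adjusted p = 0.0096 in limma). MGD3 lost its call in 3 of the 12 fits that left out an array, with a highest adjusted p of 0.054.

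The synthesis of sulfolipid was represented by both of its dedicated enzymes. SQD1 (At4g33030) makes UDP-sulfoquinovose and SQD2 (At5g01220) transfers it to diacylglycerol. SQD2 was at 0.99, 1.35 and 1.31 in Col-0 HL and at 0.24, 0.08 and 0.26 in Ga-0 HL. SQD1 was at 1.11, 1.28 and 1.23 in Col-0 HL and at 0.54, 0.40 and 0.54 in Ga-0 HL. The lowest Col-0 array of either gene lay well above the highest Ga-0 array. SQD1 was up-regulated in both accessions and SQD2 in Col-0 only. The differences were 1.03 ± 0.14 for SQD2 (adjusted p = 0.00051 in limma) and 0.72 ± 0.11 for SQD1 (adjusted p = 0.0023 in limma).

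SPX2 (At2g26660) encodes an SPX-domain protein, a class that binds inositol pyrophosphates and restrains the phosphate-starvation regulator PHR1. Its Col-0 HL arrays were at 0.72, 1.02 and 0.92 and its Ga-0 HL arrays at 0.14, 0.21 and 0.37. The response was 0.89 in Col-0 and 0.24 in Ga-0, and the difference was 0.65 ± 0.11 (adjusted p = 0.0041 in limma). Its paralog SPX1 (At5g20150) is the locus whose direction the digits alone do not settle. Its Ga-0 response was 3.69, above that of Col-0, by the placing closest to 0, while the listed powers of 10 put the difference at 1.73, with the higher response in Col-0.

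**Figure D3:**
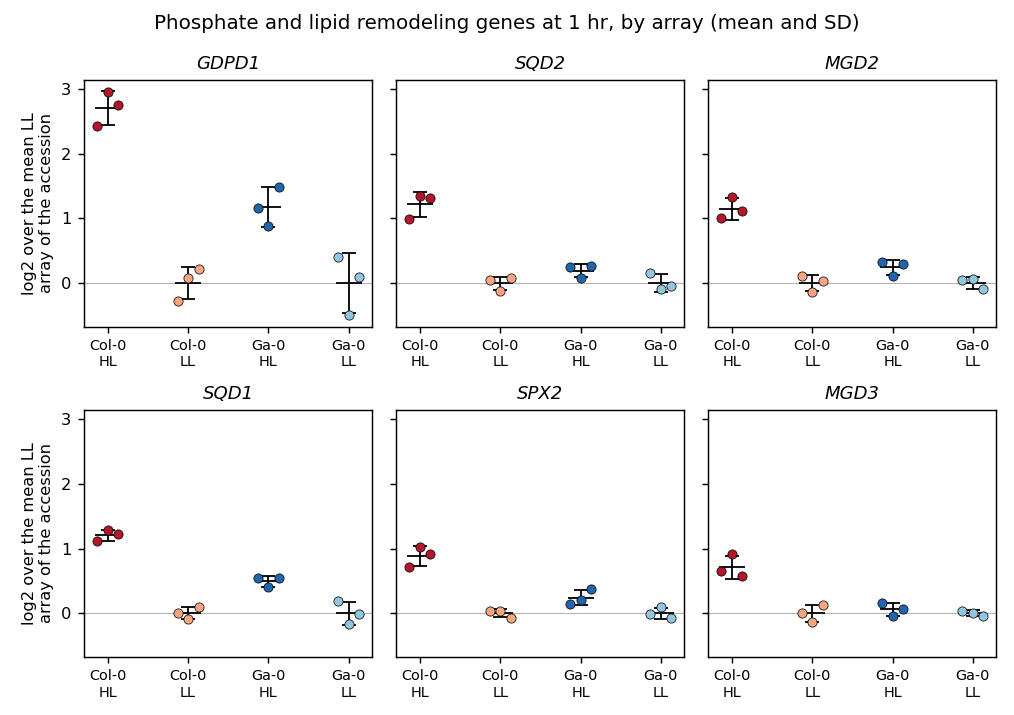
Values of the 12 arrays for 6 lipid-remodeling and phosphate genes (y axis, log2 units over the mean LL array of the same accession; points are arrays, the black bars are the mean and SD of 3 arrays). In each panel the 3 Col-0 HL arrays lie above the 3 Ga-0 HL arrays, and GDPD1 has the highest Col-0 values.

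Levels of these genes differed between the accessions in HL and, for some, in LL. In HL the level in Col-0 was higher than in Ga-0 by 1.13 for GDPD1, 1.00 for MGD2, 0.68 for SQD2, 0.46 for SQD1, 0.41 for SPX2 and 0.33 for MGD3. All 6 had an adjusted p below 0.05 in limma, as did 7.64% of all loci in that direction. In LL it was lower in Col-0, at -0.35 for SQD2, -0.32 for MGD3, -0.26 for SQD1 and -0.24 for SPX2, each with an adjusted p below 0.05 in limma, as had 9.64% of all loci in that direction. The LL differences of GDPD1 (-0.40, adjusted p = 0.070 in limma) and MGD2 (0.09, adjusted p = 0.68 in limma) did not pass. Ts-1 was intermediate for all 6, with responses of 1.37 for GDPD1, 0.75 for MGD2, 0.70 for SQD1, 0.55 for SPX2, 0.54 for SQD2 and 0.09 for MGD3. The 6 genes were called in a contrast of the same Col-0 and Ga-0 arrays. Their HL and LL levels, the shares set beside them and the place of Ts-1 are therefore a description only. In Col-0 the response did not last for most of these genes. At 3.5 hr it was -0.32 for SQD2, -0.28 for MGD2, -0.27 for SPX2 and -0.12 for MGD3, and at 25 hr it lay between -0.04 and 0.17 for these 4. SQD1 alone of these 5 stayed up-regulated, at 0.54 at 3.5 hr (3.94% of all loci were up-regulated then) and 0.72 at 25 hr (2.58%). These later values were placed at the smallest change, and GDPD1 and SPX1 are left out because their responses at 1 hr are too large for that.

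Of the 26 uncalled members of the list, 4 were singled out after their values were seen. The phosphatase PAP17 had a difference of 0.83 ± 0.21 and PHO2, an E2 enzyme that directs phosphate transporters to degradation, one of 0.66 ± 0.17, both with an adjusted p of 0.16 in limma. DGD1, the main digalactosyldiacylglycerol synthase, was at 0.42 ± 0.14 (adjusted p = 0.32 in limma). PAH1, a phosphatidate phosphatase that supplies diacylglycerol for galactolipids, was at 0.36 ± 0.10 (adjusted p = 0.26 in limma). All 4 leaned towards Col-0 without passing. Over the whole list 24 of the 33 differences were positive, as were 12976 of the 27826 over all loci. Other members of the list thus leaned the other way, such as PEPC1 at -0.065. Without the second Ga-0 LL array, 9 members of the list were called, 8 of them higher in Col-0 and the other SPX1, with no direction settled by the digits. In the fit to the 12 arrays alone, SQD2 and MGD2 kept their calls, and GDPD1, SQD1, SPX2 and MGD3 did not.

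Among called loci outside the list, the largest difference was that of At5g20790, a protein of unknown function. Its Col-0 HL arrays were at 1.09, 1.81 and 1.65, its Ga-0 HL arrays at 0.04, -0.18 and 0.16, and every LL array lay between -0.10 and 0.10. The gene thus responded in Col-0 (1.52) and not measurably in Ga-0 (0.01), with Ts-1 at 0.36. The difference was 1.51 ± 0.18 (adjusted p = 5.8e-05 in limma), the only one also called when the test was run against a 1.4-fold difference (adjusted p = 0.045 in limma).

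At1g03070 (LFG4), of the Bax inhibitor family that restrains cell death, responded in both accessions. Its HL arrays were at 2.05, 1.94 and 2.03 in Col-0 and at 0.76, 0.29 and 0.94 in Ga-0. The LL levels differed by 0.01, and the difference of responses was 1.34 ± 0.18 (adjusted p = 0.00035 in limma). The Col-0 response of 2.01 took its power of 10 from the listed change, and the difference turns to -1.98 if each response is placed at its own smallest change. CYP72A8, a cytochrome P450, showed a different form. Its HL arrays were at 0.99, 0.82 and 1.25 in Col-0 and at -0.50, -0.28 and -0.21 in Ga-0, and its LL level was lower in Col-0 by 0.89. The difference for CYP72A8 was 1.34 ± 0.20 (adjusted p = 0.00083 in limma). At1g23140, with no function given in the sources used here, was alike in this, with a difference of 1.06 ± 0.18 (adjusted p = 0.0047 in limma), an LL difference of -0.93 and an HL difference of 0.12. For it the accessions reached similar HL levels from unequal LL levels.

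Among the called loci higher in Col-0 was a trio of genes for immune receptors of the TIR class, which detect pathogen effectors inside the cell. At4g19530, called lower in Col-0, has no annotation in the sources used here, so whether it belongs to this class was not checked. At1g66090 was at 1.32, 1.13 and 1.29 in Col-0 HL and at 0.23, 0.34 and 0.26 in Ga-0 HL, a difference of 0.97 ± 0.16 (adjusted p = 0.0026 in limma). At5g41740 was at 1.03, 1.07 and 0.97 in Col-0 HL and at -0.17, 0.09 and 0.16 in Ga-0 HL, a difference of 1.00 ± 0.18 (adjusted p = 0.006 in limma). Its next neighbour on chromosome 5, At5g41750, differed by 0.78 ± 0.15 (adjusted p = 0.019 in limma) and stayed called in 8 of the 12 fits without an array. All were up-regulated in Col-0 and not in Ga-0, and all had higher levels in Col-0 in LL too, by 0.62 to 0.75. Such genes belong to families with similar copies, and how far the probes tell them apart was not tested. The list of 18 defence genes gave 0 calls in limma. At an unadjusted p below 0.05 (4.14% of all loci higher, 4.29% lower), 0 were higher and 1 lower in Col-0. That one was PR1, the salicylic acid marker, whose response was -0.01 in Col-0 and 1.22 in Ga-0, a difference of -1.23 ± 0.47 (adjusted p = 0.45 in limma).

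Transcription regulators fell into several forms. The anthocyanin repressor MYBL2 was down-regulated in both accessions, less so in Col-0, by the placing closest to 0. Its HL arrays were at -0.74, -0.42 and -0.87 in Col-0 and at -1.79, -1.55 and -1.71 in Ga-0, and the difference was 1.00 ± 0.20 (adjusted p = 0.027 in limma). Its level was lower in Col-0 in LL, by 1.59, and also in HL, by 0.58, as placed. The LL difference is near the limit of placing, so both directions are conditional on it. The Ga-0 response of -1.68 lies past the 1.66 log2 units that the digits alone can place. The difference turns to -2.32 if each response is placed at its own smallest change, so the fall in Ga-0 and the direction rest on a difference below 3.16-fold. The call was lost in 6 of the 12 fits without an array. CBF2, an activator of cold-responsive genes, and MYBC1, known as a negative regulator of freezing tolerance, were down-regulated in Ga-0 only. CBF2 was at 0.32, 0.49 and 0.52 in Col-0 HL and at -0.34, -0.82 and -0.66 in Ga-0 HL, a difference of 1.05 ± 0.22 (adjusted p = 0.034 in limma) that stayed called in 3 of the 12 fits without an array. MYBC1 was at 0.20, 0.13 and 0.25 in Col-0 HL and at -0.53, -0.52 and -0.67 in Ga-0 HL, a difference of 0.77 ± 0.12 (adjusted p = 0.0024 in limma) that stayed called in all 12. The neighbours of CBF2 in its gene cluster, CBF1 and CBF3, had differences of -0.06 ± 0.14 and -0.02 ± 0.13, and no adjusted p below 0.05 in limma for either response. At1g25550, a myb-like factor, was up-regulated in Col-0 only, with a difference of 0.72 ± 0.13 (adjusted p = 0.0088 in limma). The myb-like factor At1g68670 was up-regulated in both accessions, by 1.08 in Col-0 and 0.50 in Ga-0, with a difference of 0.58 ± 0.12 (adjusted p = 0.030 in limma). At1g68670 stayed called in 3 of the 12 fits without an array.

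Other called loci higher in Col-0 were enzymes and proteins of mixed function. TPX1, a thioredoxin-dependent peroxidase that reduces peroxides, was at 0.66, 0.52 and 0.42 in Col-0 HL and at -0.30, -0.61 and -0.37 in Ga-0 HL. It was up-regulated in Col-0, its Ga-0 response of -0.43 did not reach 1.4-fold, and the difference was 0.96 ± 0.14 (adjusted p = 0.00056 in limma). At4g35750, of the SEC14 family of lipid transfer proteins, differed by 0.89 ± 0.15 (adjusted p = 0.0041 in limma). The hydrolase gene At3g19970 differed by 0.78 ± 0.13 (adjusted p = 0.0025 in limma) and the phosphatase PFA-DSP4 by 0.74 ± 0.15 (adjusted p = 0.030 in limma). PFA-DSP4 stayed called in 5 of the 12 fits without an array. CSLG1, a cellulose synthase-like protein, differed by 0.86 ± 0.18 (adjusted p = 0.038 in limma) and stayed called in only 2 of the 12 fits without an array. The remaining called loci higher in Col-0 had differences of 0.47 to 0.71. They include PPCK1, a kinase that activates phosphoenolpyruvate carboxylase, at 0.68 ± 0.15 (adjusted p = 0.045 in limma). Its call stayed in 4 of the 12 fits without an array. Also among them was At2g40960, the next neighbour of MYBC1, at 0.70 ± 0.13 (adjusted p = 0.0094 in limma). The neighbours were unlike in form, since At2g40960 was up-regulated in Col-0 while MYBC1 was down-regulated in Ga-0.

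Leaving out SPX1, 4 called loci had a lower response in Col-0. At4g19530, which the sources used here do not annotate, was at -0.54, -0.39 and -0.58 in Col-0 HL and at 0.19, 0.24 and 0.36 in Ga-0 HL. It was the only called locus down-regulated in Col-0 alone, with a difference of -0.77 ± 0.13 (adjusted p = 0.003 in limma), and it stayed called in all 12 fits without an array. SYNC3, an asparaginyl-tRNA synthetase, was the only one up-regulated in Ga-0 alone. Its HL arrays were at -0.14, -0.15 and -0.17 in Col-0 and at 0.72, 0.55 and 0.44 in Ga-0, a difference of -0.72 ± 0.15 (adjusted p = 0.031 in limma). RBP47C, an RNA-binding protein, differed by -0.61 ± 0.13 (adjusted p = 0.038 in limma). WOL (CRE1), a cytokinin receptor, differed by -0.56 ± 0.11 (adjusted p = 0.027 in limma). Neither RBP47C nor WOL passed the responsive limits in Col-0 or Ga-0. SYNC3 and RBP47C stayed called in 3 of the 12 fits without an array and WOL in 6.

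The heat-shock response was not distinguishable between the accessions by this test. Of 76 genes on the lists of heat-shock factors, small heat-shock proteins and larger chaperones, 45 were up-regulated in Col-0 and 43 in Ga-0, including 41 that were shared. None of the 76 was called in the difference of responses in limma. At an unadjusted p below 0.05, 6 were higher and 6 lower in Col-0 (4.14% and 4.29% of all loci). The median difference was 0.01, against -0.01 over all loci, and the single genes ranged from -0.84 to 0.86. HSFA2, a heat-shock factor that sustains the response, was at 1.84, 1.90 and 1.92 in Col-0 HL and at 1.90, 1.91 and 1.88 in Ga-0 HL, a difference of -0.01 ± 0.18. HSP101, the disaggregase required for thermotolerance, rose by 2.46 in Col-0 and 2.42 in Ga-0, a difference of 0.04 ± 0.16. These 2 genes, chosen after their values were seen, changed to nearly the same extent.

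The ends of the range were held by HOP3 and HSP17.4B. HOP3, a cochaperone linking HSP70 and HSP90, was at 3.21, 3.02 and 3.33 in Col-0 HL and at 2.25, 2.44 and 2.29 in Ga-0 HL, a difference of 0.86 ± 0.22 (adjusted p = 0.16 in limma). The small heat-shock protein gene HSP17.4B was at 1.63, 1.56 and 1.88 in Col-0 HL and at 2.37, 2.68 and 2.53 in Ga-0 HL, a difference of -0.84 ± 0.20 (adjusted p = 0.090 in limma). Neither difference passed, and they pointed in opposite directions. HSP17.4B was called without the second Ga-0 LL array (-0.93, adjusted p = 0.029 in limma). The list of 17 small heat-shock proteins had a median difference of -0.10, and 22 of the 76 genes had their own responses set by a listed power of 10. The responses of HSP18.2, HSP21, HSP22.0, HSP26.5 and HSP15.4, which are not listed, are known only up to a power of 10, and their differences hold only if below 3.16-fold. HSP90.2 and HSP90.4 are near-identical copies, and the values of both are uncertain.

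**Figure D4:**
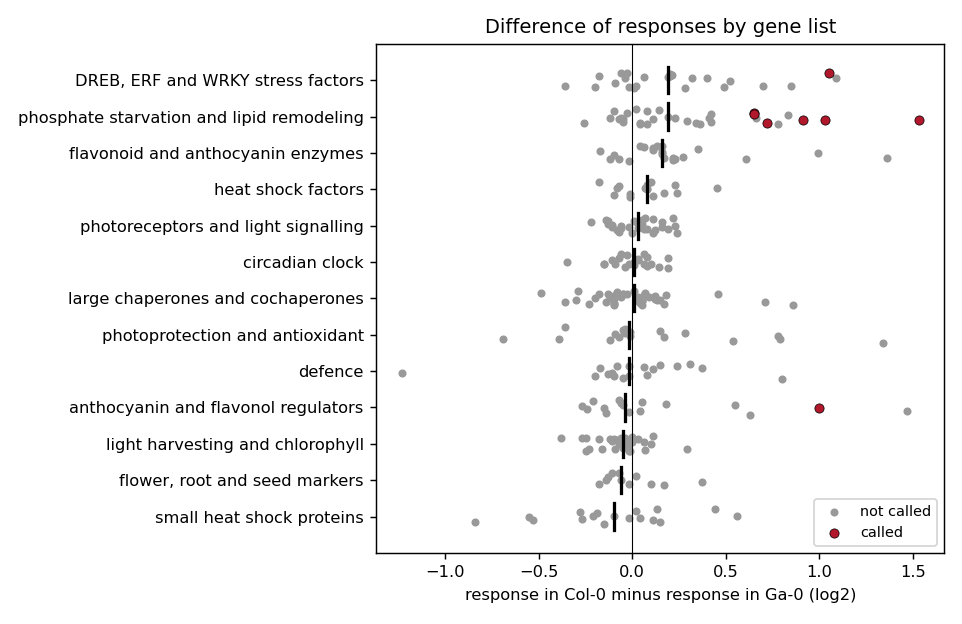
Difference of responses, Col-0 minus Ga-0 in log2 units (x axis), for the members of 13 gene lists other than SPX1. Each point is a gene, filled red where called, and the black bar is the list median. Called genes lie in the phosphate and lipid list (6), the DREB, ERF and WRKY list (CBF2) and the anthocyanin regulator list (MYBL2).

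Stress transcription factors had the same median difference as the phosphate list, but wide replicate spread. Of 24 DREB, ERF and WRKY genes, 1 (CBF2) was called, with a list median of 0.19. At an unadjusted p below 0.05, 6 were higher and 0 lower in Col-0 (4.14% and 4.29% of all loci). DREB2A, an activator of heat and drought genes, came nearest among the rest, with a response of 1.87 in Col-0 and 1.16 in Ga-0 and a difference of 0.70 ± 0.16 (adjusted p = 0.084 in limma). Its Col-0 response too is past the limit of the digits alone, and the difference turns to -2.62 with each response at its own smallest change. WRKY33, which acts in defence against fungi, was at 1.08, 1.12 and 1.71 in Col-0 HL and at 0.51, 0.40 and -0.27 in Ga-0 HL. Its LL arrays spanned -0.01 to 0.01 in Col-0 and -0.35 to 0.37 in Ga-0, and the difference was 1.09 ± 0.28 (adjusted p = 0.16 in limma). ZAT10, a zinc-finger factor of the oxidative stress response, was at 1.42, 1.58 and 1.96 in Col-0 HL and at 0.99, -0.14 and 0.11 in Ga-0 HL, a difference of 1.34 ± 0.39 (adjusted p = 0.27 in limma). Its relative ZAT12 differed by 0.79 ± 0.29 (adjusted p = 0.41 in limma) and the repressor ERF11 by 0.85 ± 0.34 (adjusted p = 0.48 in limma). WRKY33, ZAT10, ZAT12 and ERF11 were up-regulated in Col-0 and not in Ga-0, yet the difference did not pass for any of them.

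As placed, the accessions differed in these genes already in LL. The LL level was lower in Col-0 by 1.47 for ZAT10, 1.41 for ERF11, 1.23 for ZAT12 and 1.11 for WRKY33, each with an adjusted p below 0.05 in limma. In HL the differences were -0.14, -0.56, -0.44 and -0.02, in the same order of genes, and none passed. These genes were picked by their difference of responses, which uses the same LL arrays, so their levels are a description only. The second Ga-0 LL array was, as placed, the highest of its group for ZAT10, WRKY33 and ZAT12. The direction of the LL differences holds only if they are below 3.16-fold. Of the 24 DREB, ERF and WRKY genes, 11 had a lower LL level in Col-0 and 1 a higher one, against 9.64% of all loci with a lower LL level in Col-0.

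Anthocyanin genes showed the widest scatter. PAP1 (MYB75), the activator of anthocyanin synthesis, was at 1.56, 0.93 and 2.44 in Col-0 HL and at 0.51, 0.03 and -0.03 in Ga-0 HL. Its Ga-0 LL arrays were at 0.45, -1.09 and 0.65 as placed, so that they reached both above and below the Ga-0 HL arrays. The digits do not settle whether the second of them is the lowest or the highest. The difference and its SE with all arrays depend on that placing. PAP1 was up-regulated in Col-0 and its difference was 1.47 ± 0.48 (adjusted p = 0.32 in limma). Without the second Ga-0 LL array it was 2.02 and called (adjusted p = 0.018 in limma). The anthocyanidin synthase gene LDOX differed by 1.36 ± 0.59 (adjusted p = 0.53 in limma) and the dihydroflavonol reductase gene DFR by 0.99 ± 0.48 (adjusted p = 0.59 in limma). In both, the second Ga-0 LL array was again the lowest of the 3 as placed, at -1.01 for LDOX and -0.82 for DFR. Of 22 flavonoid enzymes, 0 were called in limma, and 3 were higher and 0 lower in Col-0 at an unadjusted p below 0.05. Of 16 regulators, MYBL2 was called, and 4 were higher and 0 lower at that limit. Over all loci the shares at that limit were 4.14% higher and 4.29% lower.

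The photosynthetic, light-signalling and clock genes gave no calls. At an unadjusted p below 0.05, 4.14% of all loci were higher and 4.29% lower in Col-0, the background for the counts below. For the 31 light-harvesting and chlorophyll genes, 1 was higher and 2 lower in Col-0 at an unadjusted p below 0.05, with a median of -0.05 and a range of -0.38 to 0.29. For the 30 photoreceptors and light-signalling genes, 2 were higher and 0 lower, with a range of -0.22 to 0.24. The 22 clock genes ranged from -0.35 to 0.19, with 1 in each direction. The 18 photoprotection and antioxidant genes ranged from -0.69 to 1.34, the upper end being ZAT10, with 3 higher (ZAT10, ZAT12 and ELIP1) and 1 lower and likewise 0 called in limma. ELIP1, an early light-induced protein, was up-regulated in both accessions, by 1.57 in Col-0 and 1.02 in Ga-0, and its difference of 0.54 ± 0.20 did not pass (adjusted p = 0.42 in limma).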

How the data were processed

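Total RNA of complete rosettes was hybridised to Affymetrix AraGene arrays. Per the labels and the methods, the authors applied RMA (background correction, quantile normalization, summary per locus) and tested with limma. The authors deposited 918258 values of up to 10 digits, of which 1 keeps a decimal point; the power of 10 is lost. Design and tests assumed log2 values if levels could be read; since they could not, log2 values were recovered by the placing planned for that case. Arrays of a group were placed closest together, the 4 groups so that the difference of responses lay closest to 0, and Ts-1 closest to Col-0 or at its listed power of 10. The Col-0 response took the listed power of 10 or the smallest change, and the Ga-0 response moved with it; this moved 40 of the 520 listed loci by a power of 10. Of the 520, 226 are also listed for Ga-0, and those powers of 10 were used only as an alternative.

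A limma 3.58.1 model (R 4.3.3) was fitted to all 33 arrays, with 1 mean per group and eBayes without trend (22 residual and 8.37 prior degrees of freedom), with Benjamini-Hochberg adjustment across the whole table. The number of arrays limits the precision; the median residual SD was 0.111 log2 units. Placing and fit were also run on simulated data. The simulated loci had no LL difference between accessions, so the run does not cover loci that differ in LL. P-values measure the spread between pools of rosettes. Named are the 20 called loci with the largest positive and 10 with the largest negative difference and, per list, called members and those of smallest p up to 4; exceptions are marked. Not every gene that the rule names is described. Members and lists were chosen with earlier results of these data known. Loci were matched to TAIR10.1 gene names (27241 found). Alternatives were a fit to the 12 arrays only, a replicate block, centring, a robust fit, a test against 1.4-fold, unadjusted p, other placings and each array left out. Promoter motifs were not analysed here. The effect of sequence differences between accessions on probes was not tested.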

Additional observations from a re-analysis of the deposited data

Results flagged for a closer look

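Each locus below responded to the irradiance increase to a different extent in Col-0 and Ga-0 by the test of the difference itself (limma, adjusted p below 0.05). Values are Col-0 minus Ga-0 in log2 units. Among the phosphate and lipid genes the values were 1.53 for GDPD1, 1.03 for SQD2, 0.91 for MGD2, 0.72 for SQD1, 0.65 for SPX2 and 0.65 for MGD3, and -1.59 for SPX1, whose direction is not settled. The immune receptor genes At5g41740, At1g66090 and At5g41750 stood at 1.00, 0.97 and 0.78. The transcription regulators CBF2, MYBL2, MYBC1 and At1g25550 stood at 1.05, 1.00, 0.77 and 0.72. The enzymes CYP72A8, TPX1, CSLG1, At3g19970 and PFA-DSP4 stood at 1.34, 0.96, 0.86, 0.78 and 0.74. Other genes higher in Col-0 were At5g20790 at 1.51, At1g03070 at 1.34, At1g23140 at 1.06 and At4g35750 at 0.89. Lower in Col-0 were At4g19530 at -0.77, SYNC3 at -0.72, RBP47C at -0.61 and WOL at -0.56.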

How the results depend on the processing

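The count of 37 loci was 11 with only the 12 arrays of the 4 groups in the fit, all higher in Col-0 and 10 of them among the 37. It was 1 when tested against a 1.4-fold difference, 2345 at an unadjusted p and 59 with each response at its own smallest change. Leaving out 1 array gave 23 to 138. It stayed at 37 with arrays centred on their medians (33 higher in Col-0) and was 39 with robust empirical Bayes. Responsive loci numbered 1953 in Col-0 and 1565 in Ga-0 without the fold limit, and 672 to 924 in Col-0 and 573 to 689 in Ga-0 with 1 array left out. With each response at its own smallest change the difference turned to -1.79 for GDPD1, -1.98 for At1g03070, -2.32 for MYBL2 and -2.62 for DREB2A. This follows from the construction, since their larger response is then moved by a power of 10. With the powers of 10 of the listed changes SPX1 was 1.73. The replicate numbers were not taken as pairs, since deviations of arrays with the same number correlated at -0.182 to 0.146 and others at -0.198 to 0.223. With the replicate block 38 loci were called, 36 of them among the 37, and the responsive loci numbered 792 in Col-0 and 627 in Ga-0. The second Ga-0 LL array had the largest deviation from its group mean of the 33 arrays, with a root mean square of 0.129 log2 units. Differences beyond 3.16-fold cannot be read from these digits. Levels over background cannot be read, so no filter on dim loci was possible.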
